A study of Mus musculus with 4 samples.

Results

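The enzymes described here are 9 liver genes that carry sulfur from methionine to cysteine and break down ornithine and proline: Mat1a, Gnmt, Nnmt, Ahcy, Bhmt, Cbs, Cth, Oat and Prodh. They were chosen by name, with earlier results of these data known. Every one of the 9 had at least 1 probe annotated to it alone, with 2 probes each for Cth, Cbs and Ahcy and 1 probe each for the other 6, giving 12 probes of 15478 on the table and 9 genes of 9285. The study compared livers of male mice, 7 to 8 weeks old and of mixed B6/FVB background, on 2-colour arrays. A34 mice held 2 copies of a selenocysteine tRNA transgene in which T34 was changed to A34. G37H mice held 16 copies, and G37L mice 2, of one in which A37 was changed to G37. DTrsp mice were a knockout that lacked the tRNA gene, Trsp, in the liver. Each line was set against wild-type (Trsp) littermates, and all animals ate a diet with sufficient selenium. The labels leave unstated whether the native Trsp gene was intact in transgenic livers, and what drove the deletion in the knockout.

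Each value is the authors' average log ratio over 4 animals for A34, G37L and DTrsp and over 3 for G37H, per the labels. No spread between animals can be given, so no test was possible and every comparison is a description of averaged values. The ratio is read as mutant (Cy5) over wild type (Cy3), a direction that is likely from the dye labels but not stated. A turned ratio would change every sign below. The logarithm is read as base 2, which the labels do not state. The one spread in the table is the gap between probes of one gene. Such probes were read on the same animals, so the gap shows disagreement of probes and not the spread between animals. It is no bound of significance, and an enzyme with 1 probe has no gap of its own. Over the 1791 genes with exactly 2 probes, the median gap was 0.29 in A34, 0.30 in G37H, 0.31 in G37L and 0.43 in DTrsp. The 95th percentile of that gap was 0.98, 1.17, 1.04 and 1.42 in the same order.

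The methionine cycle makes S-adenosylmethionine, the methyl donor of the cell, and returns the homocysteine left after methyl transfer to methionine. Transsulfuration draws homocysteine off instead and hands its sulfur to cysteine, which liver uses for glutathione, taurine and sulfate. Ornithine and proline breakdown meet at glutamate semialdehyde, on the way to glutamate. The selenocysteine that enters proteins is built on its tRNA from serine, while Cbs and Cth can carry selenium from selenomethionine along the same route as sulfur.

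The 9 enzymes did not share a direction. Cth was the farthest from wild type and lay among the lowest genes of all in the transgenic lines, Oat was low beside it, and Cbs and Prodh were at least 2-fold lower in 1 G37 line each. The gene values of the methionine-cycle enzymes Mat1a, Gnmt, Ahcy and Bhmt stayed within 2-fold of wild type in all 4 lines. For Ahcy in A34, that value was the mean of disagreeing probes, at -1.49 and 0.14. Nnmt was low in DTrsp and high in G37L. In A34, 1 of the 9 was lower by 2-fold or more and 0 were higher by that much, against 0.452% and 1.40% of all genes. In G37H the counts were 3 lower and 0 higher, against 3.10% and 2.78% of all genes. In G37L they were 3 lower and 1 higher, against 3.96% and 2.51%, and in DTrsp 1 lower and 0 higher, against 1.62% and 3.27%. Since the 9 were chosen with earlier results known, these counts are a description and cannot show an excess. The median of the 9 was -0.11 in A34, -0.33 in G37H, -0.71 in G37L and 0.17 in DTrsp, beside medians over all genes of 0.07, -0.11, -0.11 and 0.16. Set relative to the median of 11 hepatocyte markers, the lower counts became 3 in A34, 5 in G37H, 6 in G37L and 1 in DTrsp, against 2.36%, 30.5%, 28.2% and 14.2% of all genes under the same centring, which moved most genes below 0. Cth and Oat were among the lower enzymes in each transgenic line. In RNA from whole liver, fewer cells of a type and less RNA per cell cannot be told apart.

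**Figure D1:**
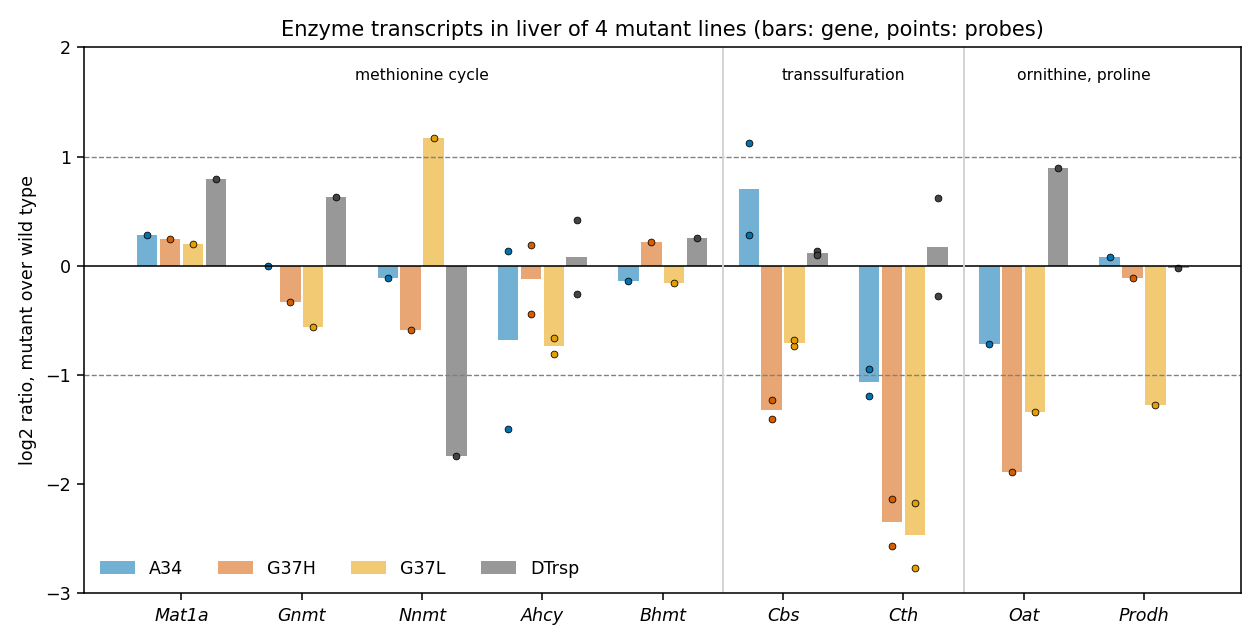
Log2 ratio of mutant over wild type for each of the 9 enzymes in A34, G37H, G37L and DTrsp liver; bars are the mean over the probes of a gene, points the single probes, and dashed lines mark 2-fold. The Cth bars of the 3 transgenic lines lie beyond 2-fold lower, at -1.07, -2.35 and -2.47, while the Cth probes of DTrsp fall on either side of 0.

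Cth encodes cystathionine gamma-lyase, which splits cystathionine to release cysteine and also makes hydrogen sulfide. Its log2 ratio was -1.07 in A34, -2.35 in G37H, -2.47 in G37L and 0.17 in DTrsp. The level was 2.10-fold lower than in wild type in A34, 5.10-fold lower in G37H and 5.54-fold lower in G37L. Counted from the lowest of 9285 genes, Cth ranked 31 in A34, 3 in G37H, 2 in G37L and 4720 in DTrsp.

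The 2 Cth probes read alike in the transgenic lines. The first gave -1.20 in A34, -2.57 in G37H, -2.77 in G37L and 0.62 in DTrsp. The second gave -0.94, -2.13, -2.17 and -0.28 in the same lines. Both probes placed every transgenic line below DTrsp, but in DTrsp itself they differed by 0.90 and had opposite signs, so no direction can be given for Cth in the knockout. G37H and G37L differed by 0.12 for the gene, less than the 0.43 and 0.60 between the probes within each line. The A34 value lay 1.40 above that of G37L, with 1.57 and 1.23 for the single probes. The first probe in the 3 transgenic lines, and the second in G37H and DTrsp, gave values with no fraction beyond the fourth decimal. A single array always gives such a value, and an average over all arrays does so in part of cases. Of the 48 probe values of the enzymes, 16 had no fraction. The share that averages over all arrays would give was not computed. Having no fraction therefore cannot show that a value rests on fewer arrays, here or for Cbs and Nnmt below.

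Cbs encodes cystathionine beta-synthase, which joins homocysteine to serine and so feeds Cth. It was at 0.71 in A34, -1.32 in G37H, -0.71 in G37L and 0.12 in DTrsp. Its probes read 0.29 and 1.13 in A34, -1.23 and -1.41 in G37H, -0.73 and -0.68 in G37L, and 0.14 and 0.10 in DTrsp. Both probes were therefore above 0 in A34 and below 0 in both G37 lines. In A34 they lay 0.84 apart, and 1 of them passed 2-fold. The values of the second probe in A34, G37H and G37L, that one included, have no fraction beyond the fourth decimal. Cbs and Cth, the consecutive steps from homocysteine to cysteine, thus had opposite signs in A34 and the same sign in both G37 lines.

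Oat encodes ornithine aminotransferase, a mitochondrial enzyme that turns ornithine into glutamate semialdehyde, and is found in the hepatocytes around the central vein. Its single probe gave -0.72 in A34, -1.89 in G37H, -1.34 in G37L and 0.90 in DTrsp. From the lowest gene, it ranked 135 in A34, 12 in G37H and 123 in G37L, while in DTrsp it was 427 from the highest. The G37H level was 3.70-fold below wild type and the G37L level 2.53-fold below it, whereas the DTrsp level was 1.87-fold above it.

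Oat and Cbs were both at least 2-fold lower in G37H, and their promoters are shown. Being below wild type in both G37 lines was not particular to them. Cth was at -2.35 in G37H and -2.47 in G37L, and Gnmt at -0.33 and -0.56. The Ahcy mean was -0.12 and -0.73, but its probes had opposite signs in G37H. Prodh was at -0.11 and -1.27, the G37H value being at the median of all genes. The table of RefSeq promoters held 6 of the 9 enzymes: Ahcy, Bhmt, Cbs, Gnmt, Oat and Prodh. Cth, Mat1a and Nnmt were not among them. The sequences are the 250 bases before the annotated start on GRCm38.p6, read 5′ to 3′ on the gene's strand, with matches to the CCAAT box on either strand in capitals (ATTGG is the same box on the other strand). Oat is at chr7:132576399-132576648, minus strand, and Cbs at chr17:31637206-31637455, minus strand.
Oat: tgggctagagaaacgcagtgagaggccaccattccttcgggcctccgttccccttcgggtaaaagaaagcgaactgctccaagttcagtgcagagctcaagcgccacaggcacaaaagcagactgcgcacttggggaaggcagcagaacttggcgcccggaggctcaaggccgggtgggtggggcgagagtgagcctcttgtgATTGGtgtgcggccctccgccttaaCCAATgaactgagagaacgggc
Cbs: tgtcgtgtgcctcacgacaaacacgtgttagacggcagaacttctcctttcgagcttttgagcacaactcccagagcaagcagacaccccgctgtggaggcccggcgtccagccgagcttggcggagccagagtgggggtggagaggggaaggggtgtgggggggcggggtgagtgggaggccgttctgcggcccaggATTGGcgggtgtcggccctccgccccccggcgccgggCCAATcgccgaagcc

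Each of these stretches held 2 CCAAT matches, 1 on each strand, starting 47 and 22 bases before the start in Oat and 52 and 15 bases before it in Cbs. Of 32851 RefSeq promoters cut to the same 250 bases, 33.8% held the box at least once and 10.1% at least 2 times. Ahcy, Bhmt and Gnmt had 1 match each, and Prodh had 0. GC content was 60.0% in the Oat stretch and 68.0% in the Cbs stretch. A further 3 motifs were searched on both strands: TGATGNAA, read by ATF4 with a C/EBP partner, TGACNNNGC, the core of the antioxidant response element, and TTGCNNAA, a C/EBP site. Neither the Oat nor the Cbs stretch held any of these letters. Prodh held TGACNNNGC once, and 3.45%, 10.2% and 9.56% of all promoters held the 3 motifs in that order.

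Prodh encodes proline dehydrogenase, the first enzyme of proline breakdown. Its single probe gave 0.08 in A34, -0.11 in G37H, -1.27 in G37L and -0.02 in DTrsp. G37L was the low line, 2.42-fold below wild type and 161 from the lowest gene, and the other 3 lines lay between -0.11 and 0.08. In G37H, Prodh was at the median of all genes while Oat was near the bottom, so the entry points of proline and ornithine breakdown stood far apart in that line.

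Nnmt encodes nicotinamide N-methyltransferase, which spends S-adenosylmethionine to methylate nicotinamide. It gave -0.11 in A34, -0.58 in G37H, 1.17 in G37L and -1.75 in DTrsp, from 1 probe. In DTrsp the level was 3.36-fold below wild type and 11 from the lowest of all genes. In G37L it was 2.25-fold above wild type and 159 from the highest. With probes averaged and ratios as deposited, no other enzyme of the 9 passed 2-fold in both directions, although the second Cbs probe did, at 1.13 in A34 and -1.41 in G37H. Relative to 11 hepatocyte markers, whose median was 0.63 in G37L, Nnmt in G37L was at 0.53, under 2-fold. The A34, G37H and DTrsp values of Nnmt have no fraction beyond the fourth decimal.

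Gnmt encodes glycine N-methyltransferase, the main liver enzyme that removes surplus S-adenosylmethionine. It was at -0.0045 in A34, -0.33 in G37H, -0.56 in G37L and 0.63 in DTrsp. The decimals of its DTrsp value are not ones that an average over 4 arrays can give, and the number averaged is not known. Mat1a encodes the liver methionine adenosyltransferase that makes S-adenosylmethionine. It was at 0.28, 0.24, 0.20 and 0.80 in the same lines, above 0 in each, and 658 from the highest gene in DTrsp.

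Ahcy encodes adenosylhomocysteinase, which frees homocysteine after methyl transfer. Its mean was -0.68 in A34, -0.12 in G37H, -0.73 in G37L and 0.08 in DTrsp. The probes disagreed in A34, at -1.49 and 0.14, and also in sign in G37H, at -0.44 and 0.19, and in DTrsp, at -0.26 and 0.42. In G37L they gave -0.81 and -0.66, so G37L was the line where both read the same way. The A34 gap of 1.63 was wider than the 95th percentile for that line, and no direction is given for Ahcy there.

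Bhmt encodes betaine-homocysteine methyltransferase, which remethylates homocysteine with a methyl group from betaine. It was at -0.14 in A34, 0.22 in G37H, -0.15 in G37L and 0.25 in DTrsp. These values, from -0.15 to 0.25, had the narrowest reach from 0 of the 9 enzymes. Bhmt2, a close relative of similar sequence, was at 0.29, 0.11, -0.34 and 0.83.

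**Figure D2:**
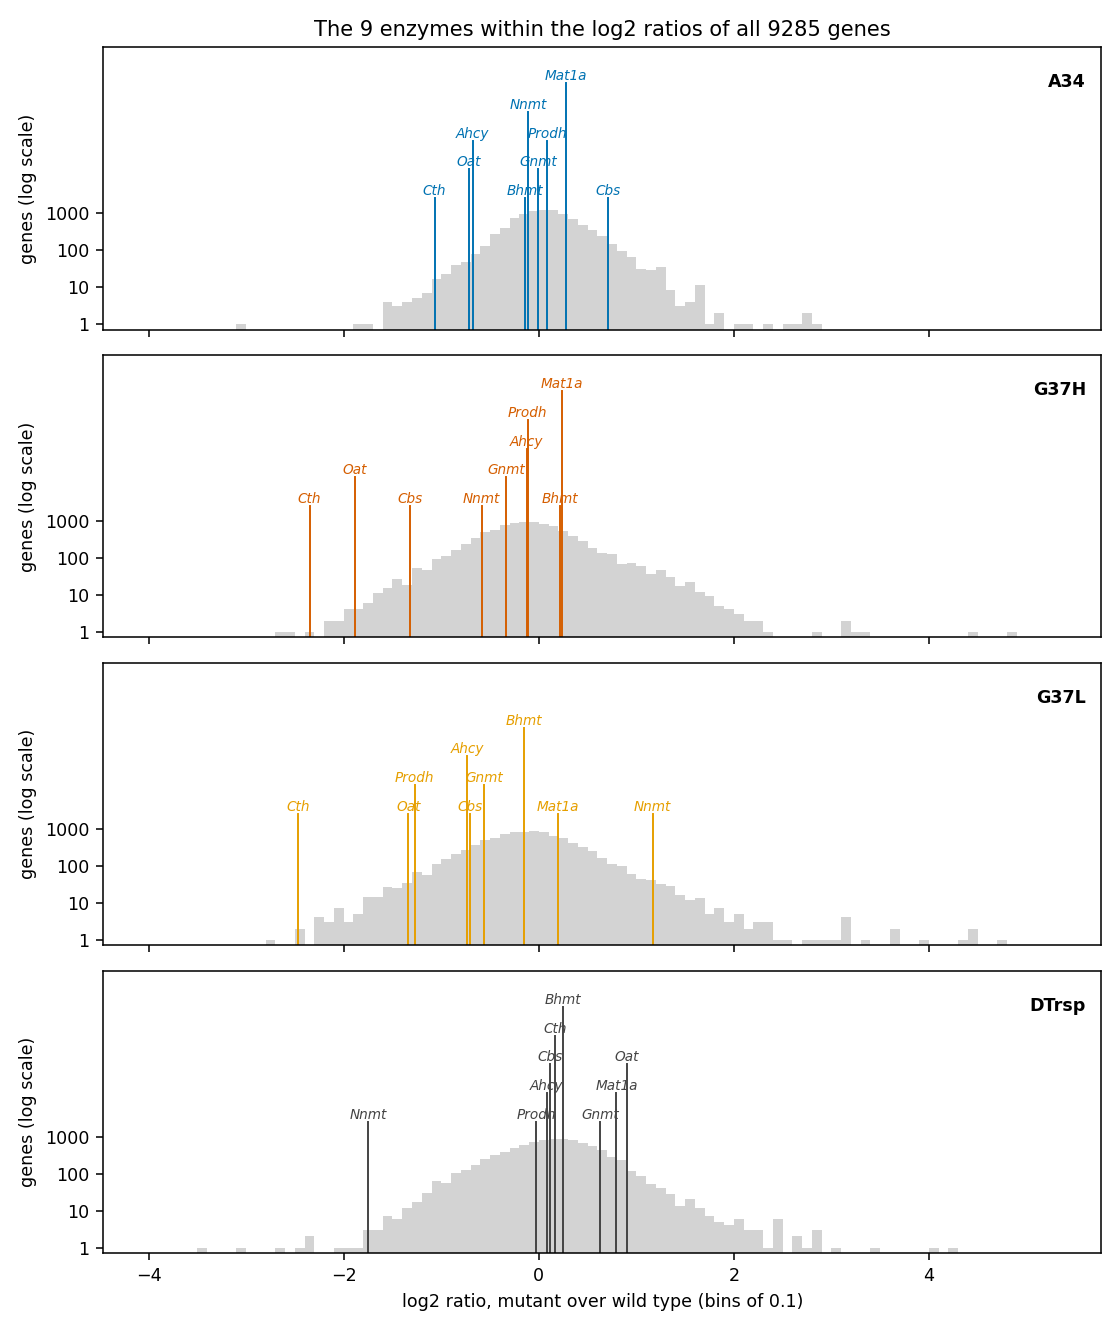
Number of genes (log scale) by log2 ratio of mutant over wild type, in bins of 0.1, for A34, G37H, G37L and DTrsp; coloured lines mark the 9 enzymes, and their heights only separate the names. Cth stands in the lower tail of the 3 transgenic lines, at rank 31, 3 and 2 from the lowest of 9285 genes, and Nnmt in that of DTrsp, at rank 11.

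The A37-to-G37 lines differed in copy number, 16 copies in G37H and 2 in G37L. Subtracting log2 ratios, 2 of the 9 enzymes were at least 2-fold apart, against 6.74% of all genes. Nnmt was lower in G37H by a difference of -1.75, 35 from the lowest of all genes, and Prodh was higher in G37H by 1.16. For Cbs the difference was -0.61 and for Oat -0.55, and for Cth 0.12. The median gap between the probes of a gene in this difference was 0.34 and its 95th percentile 1.26, so Nnmt was the one enzyme whose difference exceeded that percentile.

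A34 and G37L both carried 2 copies, of transgenes with different bases changed. Of the 9 enzymes, 4 were at least 2-fold apart, against 9.62% of all genes. Cbs was higher in A34 by 1.41, Cth by 1.40 and Prodh by 1.36, and Nnmt was lower in A34 by a difference of -1.28. The 95th percentile of the probe gap was 1.33 in this difference. For Cbs the single probes gave 1.02 and 1.81, both in the same direction.

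Against the knockout, Cth and Oat were at least 2-fold lower in each transgenic line. In A34 minus DTrsp, 3 of the 9 enzymes were at least 2-fold apart (8.57% of all genes), in G37H minus DTrsp 4 (13.2%) and in G37L minus DTrsp 5 (14.1%), which became 3 once each line was centred on its median over genes. The share of all genes was not computed under that centring. The Oat difference was -1.62 in A34, -2.78 in G37H and -2.24 in G37L. The Cth difference was -1.24, -2.52 and -2.64. For the second Cth probe alone it was -0.66 in A34, under 2-fold, and -1.85 and -1.89 in the G37 lines. Nnmt went the other way, with differences of 1.64, 1.16 and 2.91. Cbs was 1.44 lower on the log2 scale in G37H than in DTrsp (difference -1.44), and Gnmt and Prodh differed by -1.19 and -1.25 in G37L. The 95th percentile of the probe gap was 1.79 in A34 minus DTrsp, 1.65 in G37H minus DTrsp and 1.65 in G37L minus DTrsp. Cth and Oat in both G37 lines and Nnmt in G37L exceeded it. The 3 differences in A34, Cbs and Nnmt in G37H, and Gnmt and Prodh in G37L did not. These 3 differences share the DTrsp values, and the sources used here do not say whether the lines shared wild-type animals.

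**Figure D3:**
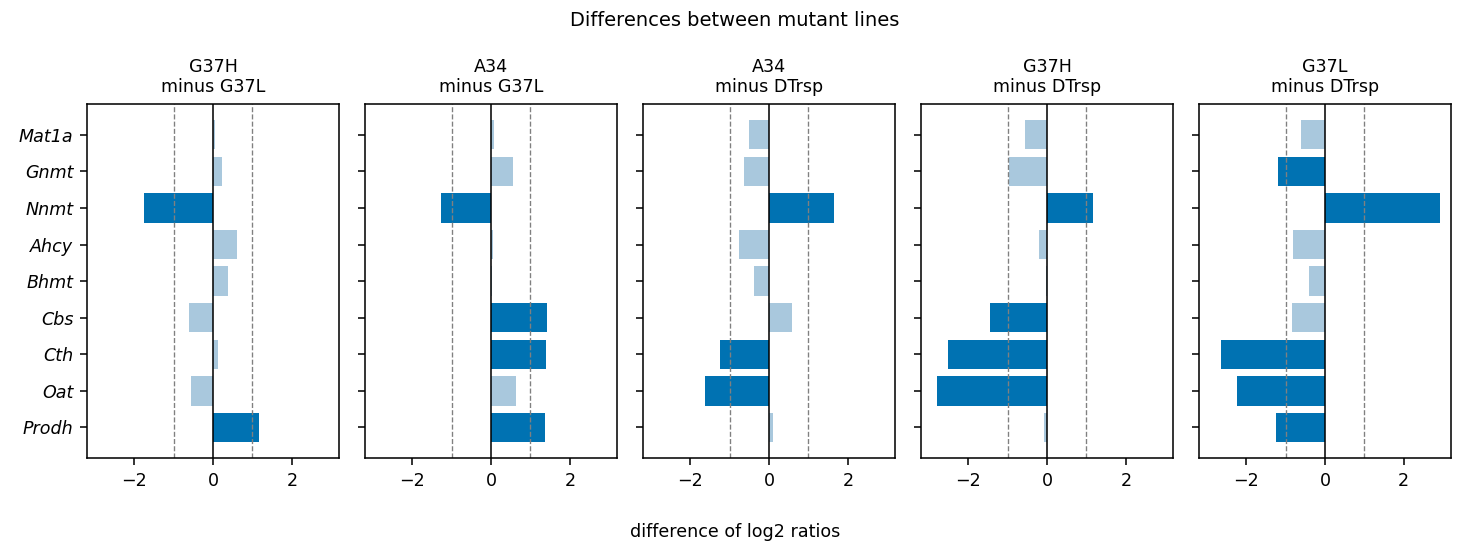
Difference of log2 ratios between mutant lines for each of the 9 enzymes, the line named first minus the one named second; dark bars are at least 2-fold and dashed lines mark 2-fold. Nnmt has bars beyond 2-fold in all 5 panels, from -1.75 in G37H minus G37L to 2.91 in G37L minus DTrsp.

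The other measured genes of the methionine cycle stayed within 2-fold of wild type. Their medians were 0.33 in A34, 0.11 in G37H, -0.05 in G37L and 0.38 in DTrsp. The medians over all genes were 0.07, -0.11, -0.11 and 0.16. Of 7 measured beside the 5 enzymes above, 0 were at least 2-fold apart in any line, with values between -0.70 and 0.87. The lowest was Gamt, which makes creatine with S-adenosylmethionine, at -0.70 in G37L, and it was also the highest, at 0.87 in DTrsp. Pemt, which spends S-adenosylmethionine on phosphatidylcholine, was at 0.37, 0.24, -0.05 and 0.32 in A34, G37H, G37L and DTrsp.

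Of 10 genes of cysteine use measured beside Cbs and Cth, 5 were at least 2-fold higher in DTrsp and 0 lower, with a median of 0.82. They were Gclc and Gclm, the subunits of the first enzyme of glutathione synthesis, at 2.46 and 1.28, the persulfide dioxygenase Ethe1 at 1.86, the taurine-forming enzyme Csad at 1.33 and the sulfite oxidase Suox at 1.04. Others were not: Gss, the second enzyme of glutathione synthesis, was at 0.31, and the mercaptopyruvate sulfurtransferase Mpst at -0.76. Cth, the source of cysteine in this pathway, had probes on either side of 0 in that line. In A34, 1 of the 10 was lower by 2-fold or more: Got1, a cytosolic aspartate aminotransferase that also acts on cysteine sulfinate, at -1.08. In G37H, 1 was, Csad at -1.48, and in G37L 1 was, Got1 just past the threshold. Over all genes, the share lower was 0.452% in A34, 3.10% in G37H and 3.96% in G37L. Got1 was at -0.94 in G37H and 0.26 in DTrsp. Gclc was at 0.56, 0.09 and -0.60 in A34, G37H and G37L.

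Of 9 choline, betaine and one-carbon genes measured, 9 were below 0 in G37H, from -0.67 to -0.07, and 9 in G37L, from -1.32 to -0.23, where 61.6% and 60.6% of all genes were below 0. Of the 17 genes of other amino acid breakdown, 9 were below 0 in G37H and 16 in G37L. The 9 choline, betaine and one-carbon genes had medians of 0.38 in A34, -0.39 in G37H, -0.55 in G37L and 0.06 in DTrsp. Of these 9, the gene at least 2-fold lower was Aldh7a1, which oxidises betaine aldehyde and lysine products, at -1.32 in G37L. The gene at least 2-fold higher was Ftcd, of histidine and folate metabolism, at 1.39 in A34. Over all genes, 3.96% were at least 2-fold lower in G37L and 1.40% higher in A34.

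Of the 4 ornithine and proline genes measured beside Oat and Prodh, 0 were at least 2-fold apart in any line, with values between -0.51 and 0.78. In DTrsp, where Oat was at 0.90, Prodh2 was at 0.78 and the proline dipeptidase Pepd at 0.76. Aldh4a1, which completes proline breakdown to glutamate, was at 0.27 in A34, -0.07 in G37H, -0.28 in G37L and 0.44 in DTrsp. The 8 urea cycle genes included 0 at least 2-fold apart in any line, with medians of 0.17, -0.16, -0.06 and 0.36. The 17 other amino acid breakdown genes had 1 at least 2-fold apart, in DTrsp, and their medians were 0.30, -0.11, -0.31 and 0.56. The 7 genes of polyamine synthesis and methionine salvage had 0, with medians of 0.03, -0.25, -0.28 and 0.08. Of 12 other genes of nicotinamide and NAD metabolism, Aox1, an oxidase that acts on methylated nicotinamide, was at least 2-fold higher in DTrsp at 1.04, where Nnmt was at -1.75. ATF4, a transcription factor of amino acid shortage, is known to act on Cth, and 12 measured genes of its list had medians of 0.25, -0.24, 0.15 and 0.45 with 0 at least 2-fold apart.

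**Figure D4:**
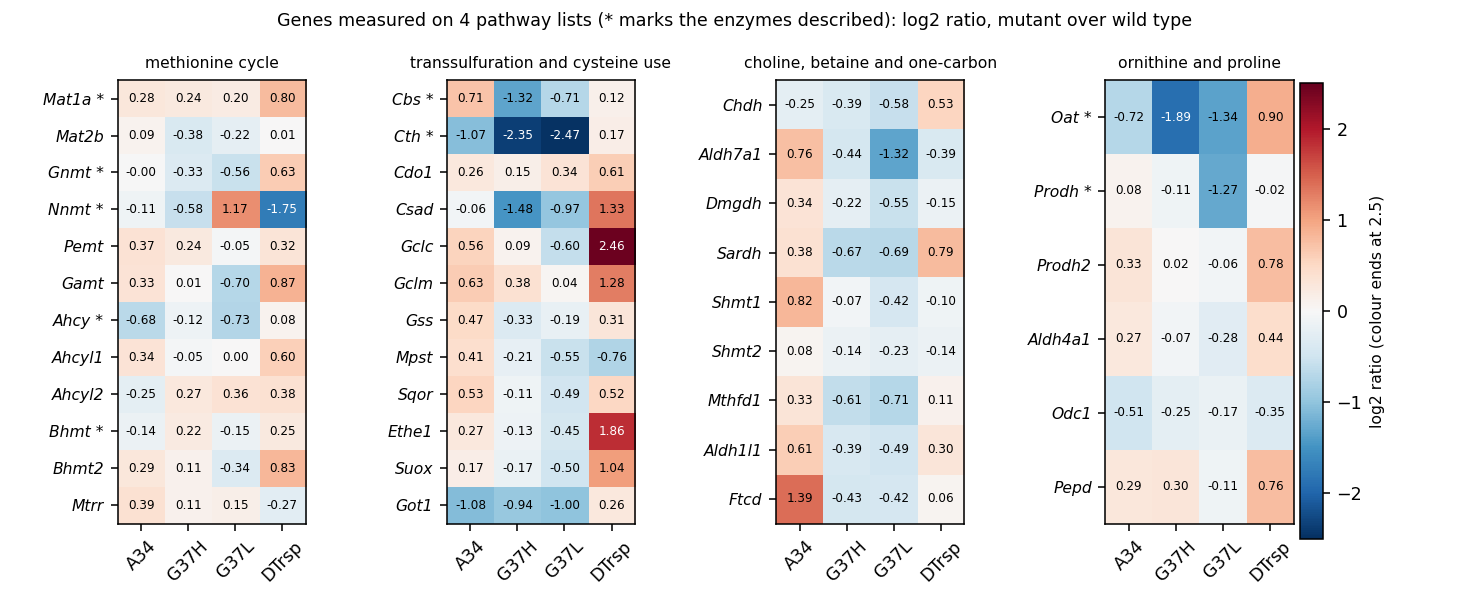
Log2 ratio of mutant over wild type in A34, G37H, G37L and DTrsp for every measured gene of the methionine cycle, transsulfuration and cysteine use, choline and one-carbon, and ornithine and proline lists; asterisks mark the 9 enzymes. Blue Cth, Csad, Got1 and Oat cells in the G37 columns stand beside red Gclc, Ethe1 and Csad cells in the DTrsp column.

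Zone and cell type markers were read beside these values. Of 10 pericentral genes other than Oat, 1 was at least 2-fold lower in G37H, the glutamine synthetase Glul at -1.21, and 1 in G37L, Cyp2c37 at -1.08. Of all genes, 3.10% and 3.96% were that much lower in G37H and G37L. Cyp2e1, of the same list, lay above 0 in these lines, at 0.86 and 0.58. Below 0 were 5 of the 10 in G37H and 7 in G37L, against 61.6% and 60.6% of all genes. In DTrsp, 2 of the 10 were at least 2-fold higher, against 3.27% of all genes. They were Gstm3 at 3.46 and the ammonia transporter Rhbg at 2.10. The medians of the 10 were 0.09 in A34, -0.02 in G37H, -0.32 in G37L and 0.33 in DTrsp. The 9 periportal genes had medians of 0.38, 0.11, -0.14 and 0.41. Among them Etnppl, an ethanolamine phosphate lyase, was at -0.53, -1.31, -1.36 and 1.60. The 11 measured hepatocyte markers were above 0 in all 4 lines, with medians of 0.39, 0.68, 0.63 and 0.64, so Cth, Oat and Cbs in the G37 lines lay on the opposite side of 0 from them.

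Markers of other cells also differed between lines. The 11 Kupffer cell and macrophage markers had medians of 0.60 in A34, 0.58 in G37H, 0.74 in G37L and 0.36 in DTrsp. Those at least 2-fold higher numbered 2, 2, 4 and 0, against 1.40%, 2.78%, 2.51% and 3.27% of all genes. The 3 neutrophil markers had medians of 0.18, 0.66, 1.23 and 0.78 in the same lines. Lcn2 was at 0.18, 0.66, 4.47 and 1.07, and S100a8 at 0.54, 0.82, 1.23 and 0.78. S100a9 was at -0.17, 0.12, 0.46 and -0.22. The 10 stellate and fibroblast markers had medians of 0.09, -0.12, 0.03 and -0.46, and the 10 endothelial markers 0.30, 0.07, -0.06 and 0.46. For 3 bile duct markers the medians were 0.46, -0.40, -0.13 and 0.26, and for 2 lymphocyte markers -0.22, -0.32, -0.77 and 0.43. The part of these cells in the enzyme values was not tested. Ratios do not show whether a marker is present, so the labelled tissue could not be checked by level.

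The genes nearest to Cth, Oat and Nnmt over the 4 lines were ranked by the Euclidean distance of their log2 ratios, a description over 4 averaged values. Nearest to Cth was the ion channel gene Asic5, at a distance of 0.85, with -1.26 in A34, -1.96 in G37H, -2.13 in G37L and 0.82 in DTrsp. Rgs16, a regulator of G-protein signalling, and Oat followed at 1.44 and 1.47. Nearest to Oat were the vanin gene Vnn3 at 0.40, with -0.46, -1.66, -1.37 and 0.70, then Pebp1 at 0.64 and 5031439G07Rik at 0.74. Nearest to Nnmt were Pld5 at 0.79, Insl3 at 0.94 and Bmf at 0.99. The nearest genes of Mat1a, Bhmt and Prodh lay closer, at 0.08, 0.05 and 0.13. Few genes lie as far from 0 as Cth and Nnmt, so the distances cannot say how unusual their patterns are.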

How the data were processed

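Total RNA (15 µg) from liver was copied from oligo-dT and coupled to Cy3 or Cy5, per the labels' protocols. The deposited values are log2 ratios as read here, 1 column per mutant line, averaged by the authors over biological replicates, per the labels. Background handling, normalization and any dye swaps are unstated in those labels, and the number of arrays limits the precision. Probe names come from the annotation of the platform, updated by gene identifier to RefSeq (GRCm38.p6): 12984 matched, 63 kept the annotation's symbol, and 110 with several genes and 2321 unlisted stayed unnamed. Probes of a gene were averaged with pandas 2.3.3 and numpy 2.4.6 under Python 3.11.15. A gene was counted at 2-fold (log2 of 1). Lines were compared by subtracting log2 ratios, and thresholds, centring, scaling, probe rules, log base and direction were varied. No count test, SD or p-value was possible.

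Of 48 probe values of the 9 enzymes, 2 have decimals that an average over the labelled number of arrays cannot give (tolerance 0.02 of the fourth decimal): Gnmt in DTrsp and 1 Ahcy probe in G37L. Another 16 have no fraction, which averages over all arrays also give in part of cases. The 9 enzymes, the 18 lists and the motifs were chosen with earlier results of these data known. Named genes are the 9 enzymes, up to 4 genes of a list that lay farthest from 0 in the line described, any gene of the 4 pathway lists at least 2-fold apart, and the 3 genes nearest to the 3 enzymes farthest from 0. Pemt, Bhmt2, Aldh4a1, Prodh2, Pepd, Gss, Mpst, the Got1, Gclc and Cyp2e1 values given for other lines, and the CCAAT box were chosen after they were seen. The counting was tested on simulated data.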

Additional observations from a re-analysis of the deposited data

Results flagged for a closer look

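Nnmt was at least 2-fold higher in G37L, at 1.17, and at least 2-fold lower in DTrsp, at -1.75. With probes averaged and ratios as deposited, no other enzyme of the 9 was at least 2-fold from wild type in opposite directions. With the probe farthest from 0, a natural log or scaling to the spread of DTrsp, Cbs was too (higher in A34, lower in G37H), and with a natural log also Oat. Relative to hepatocyte markers Nnmt in G37L was at 0.53, under 2-fold. The difference between G37L and DTrsp was 2.91, 16 from the highest of 9285 genes. The difference was not tested, since each line has 1 averaged value, and it rests on 1 probe.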

How the results depend on the processing

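No paired analysis was possible because each line has 1 averaged value, and no animal could be left out. A value was taken as moved past 1.5-fold. At a 1.5-fold threshold, enzymes lower numbered 3 in A34 and 5 in G37L, against 2.65% and 15.3% of all genes. Enzymes higher numbered 1 in A34 and 3 in DTrsp, against 7.6% and 15.6%. Enzymes apart numbered 4 in G37H minus G37L, 6 in A34 minus DTrsp and 8 in G37L minus DTrsp. At 3-fold, 0 were lower in A34, 1 lower and 0 higher in G37L, against 0.0323%, 0.635% and 0.657%. Enzymes apart at 3-fold numbered 1 in G37H minus G37L, 0 in A34 minus G37L, 2 in G37H minus DTrsp and 3 in G37L minus DTrsp. For the differences, the share of all genes was not computed at these thresholds or under the other settings below. Their counts can therefore not be read as an excess. Centred on column medians, G37L minus DTrsp had 3 apart. With the probe farthest from 0, A34 had 2 lower and 1 higher, against 0.571% and 2.98% of all genes. Scaled to the spread of DTrsp, A34 also had 2 lower and 1 higher, against 1.66% and 4.82%. Read as natural logs, A34 had 2 lower and 1 higher, G37L 5 lower and DTrsp 2 higher, against 1.63%, 4.76%, 11.1% and 10.2% of all genes. Cth would then be at -3.39 in G37H and -3.56 in G37L, Oat at -2.72 and -1.93, and Nnmt at -2.52 in DTrsp, each over 1.5-fold from its value on base 2, as were 12 differences between lines. The median of probes changed no count, since no enzyme has more than 2 probes. The 2 values with decimals that the labelled number of arrays cannot give were left out, a choice made after seeing the data. This changed the count of G37L minus DTrsp to 4, by the loss of Gnmt. Centred on hepatocyte markers, also chosen after seeing the data, 3 were lower in A34, 5 in G37H and 6 in G37L, against 2.36%, 30.5% and 28.2% of all genes, 0 were higher in G37L, and medians were -1.02 in G37H, -1.34 in G37L and -0.47 in DTrsp. The cause was not tested.

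With the ratio turned, every sign changes by construction. Lower and higher counts would be 0 and 1 in A34, 0 and 3 in G37H, 1 and 3 in G37L, and 0 and 1 in DTrsp. Medians would be 0.11, 0.33, 0.71 and -0.17, and for the differences -0.12 (G37H minus G37L), -0.56 (A34 minus G37L), 0.51, 0.56 and 0.83 (A34, G37H and G37L minus DTrsp). Cth would be at 1.07, 2.35 and 2.47 in A34, G37H and G37L, Oat at 1.89 and 1.34 in G37H and G37L, Cbs at 1.32 in G37H, Prodh at 1.27 in G37L, and Nnmt at -1.17 in G37L and 1.75 in DTrsp. Differences would be 1.75 for Nnmt and -1.16 for Prodh in G37H minus G37L, and 1.28 for Nnmt, -1.41 for Cbs, -1.40 for Cth and -1.36 for Prodh in A34 minus G37L. They would be -1.64 for Nnmt, 1.24 for Cth and 1.62 for Oat in A34 minus DTrsp, -1.16 for Nnmt, 1.44 for Cbs, 2.52 for Cth and 2.78 for Oat in G37H minus DTrsp, and 1.19 for Gnmt, -2.91 for Nnmt, 2.64 for Cth, 2.24 for Oat and 1.25 for Prodh in G37L minus DTrsp.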
